A study of Mus musculus with 6 samples.

Results

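Hox genes encode homeodomain transcription factors that give cells their position along the body axis and in its outgrowths. Mice carry them in 4 clusters, Hoxa, Hoxb, Hoxc and Hoxd, in which genes of the same paralogue number descend from the same ancestral gene, with number 1 at the 3′ end and number 13 at the 5′ end. Genes at the 3′ end act mainly in the head and anterior trunk, and those at the 5′ end in the hind body, the limbs and the genital tubercle, the embryonic outgrowth that becomes the penis or clitoris and needs Hoxa13 and Hoxd13 to form. The genes described here were all those whose symbol is Hoxa, Hoxb, Hoxc or Hoxd followed by a number from 1 to 13 and that had a probe set of their own on the array. They were 33 of the 18193 genes measured, represented by 48 of 45037 probe sets, with 9 genes of the Hoxa, 9 of the Hoxb, 7 of the Hoxc and 8 of the Hoxd cluster. Hoxa6, Hoxb8, Hoxc11, Hoxc12 and Hoxd4 had no probe set that was theirs alone and were not analysed here.

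The samples were cells of genital tubercles of mouse embryos at 12.5 days post coitum, on a mixed strain background. Embryos of both groups carried Shhtm1(EGFP/cre)Cjt, in which a GFP and Cre fusion is made from the Shh locus, and the Cre reporter Gt(ROSA)26Sortm3(CAG-EYFP)Hze, so that cells with a history of Shh expression and their descendants fluoresce. Sorting gave a reporter-positive group, labelled as urethral epithelium, and a reporter-negative group of the other tubercle cells. Each group had 3 arrays, replicates 1, 2 and 3, whose RNA came from pools of 3, 5 and 2 littermates of both sexes. The comparison asked where Hox genes of each cluster and position differ between the urethral epithelium and its surroundings. Values of the arrays of a group are always listed in the order of replicates 1, 2 and 3. Arrays of the same replicate number had pools of equal size, but no label states that they came from the same pool. The main test therefore treats them as unpaired, and a fit with a block by pool size is given further below. A pool of littermates is 1 sample here, and the p-values measure the spread between these pools and their arrays.

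Array quality and sort purity set what could be seen. Probe sets with a gene name had a median of 2.15 to 8.84 in deposited units in negative arrays and 3.56 to 4.73 in positive replicates 1 and 2, but 0.34 in positive replicate 3, which stood apart. Differences of the Hox genes named are therefore given with and without positive replicate 3. Background was the brightest of 27 control probe sets for bacterial transcripts, 1.12 to 8.28 in deposited units, and 24.6% of named probe sets exceeded it in positive replicate 3 against 44.0% to 59.3% in the other arrays. Of 7 epithelial markers all 7 had a positive difference, and their summed normalized signal was 751 to 1768 in positive and 53.2 to 61.8 in negative arrays. All 8 mesenchymal markers had a negative difference, with summed signals of 2500 to 3303 in negative arrays and 299.8 to 2808 in positive ones. Relative to the negative mean the median of the mesenchymal markers was -0.05, -2.91 and -2.61 on the log2 scale in the positive arrays, so mesenchymal transcripts in positive replicate 1 were near the negative level. All 5 erythroid markers measured had negative differences, and 5 of 6 macrophage markers had positive ones, with summed macrophage signals of 9.70 to 33.0 in negative and 58.6 to 140.2 in positive arrays. In such bulk samples fewer cells of a type and less RNA per cell cannot be told apart.

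Upstream sequence is shown for 3 genes of the Hoxd cluster, whose differences had unlike signs, and for Hoxa10, which had the most negative difference of the family. RefSeq entries of assembly GRCm38.p6 were matched for 19 of the 33 genes. The 250 bases before the annotated start are given 5′ to 3′ on the strand of the gene, for Hoxd13, which was bright in both fractions, Hoxd1, which had a positive difference, and Hoxd10 and Hoxa10, which had negative ones. Capitals mark CCAAT or TATAAA on either strand.
Hoxd13, chr2:74667975-74668224, plus strand: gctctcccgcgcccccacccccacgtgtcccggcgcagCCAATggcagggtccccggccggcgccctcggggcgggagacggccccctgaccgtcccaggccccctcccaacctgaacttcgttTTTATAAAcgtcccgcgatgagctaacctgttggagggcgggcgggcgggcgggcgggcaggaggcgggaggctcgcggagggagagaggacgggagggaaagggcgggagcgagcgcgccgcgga
Hoxd10, chr2:74691641-74691890, plus strand: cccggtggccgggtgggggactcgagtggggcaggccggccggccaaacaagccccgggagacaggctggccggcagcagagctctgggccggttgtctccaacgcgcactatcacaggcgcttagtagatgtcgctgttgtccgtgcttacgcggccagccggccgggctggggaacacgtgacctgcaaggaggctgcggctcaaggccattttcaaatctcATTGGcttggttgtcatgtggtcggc
Hoxd1, chr2:74762730-74762979, plus strand: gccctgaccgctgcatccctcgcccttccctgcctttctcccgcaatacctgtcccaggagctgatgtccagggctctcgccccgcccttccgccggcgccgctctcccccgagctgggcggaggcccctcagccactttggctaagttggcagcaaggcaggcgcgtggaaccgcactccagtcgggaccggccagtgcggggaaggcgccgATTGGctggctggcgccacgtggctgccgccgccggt
Hoxa10, chr6:52240855-52241104, minus strand: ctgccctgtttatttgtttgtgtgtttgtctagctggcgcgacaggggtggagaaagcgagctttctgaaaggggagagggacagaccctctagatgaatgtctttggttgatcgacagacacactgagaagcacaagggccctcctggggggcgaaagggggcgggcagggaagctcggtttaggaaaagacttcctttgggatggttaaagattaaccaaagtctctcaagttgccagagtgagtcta
In all, 5 motifs were searched on both strands. They were CCAAT, common in promoters, TATAAA, the TATA box, TTTACGA, a core that posterior Hox proteins bind, TGATTGAT, a site of Pbx with Hox proteins, and TGACAG, the Meis site. The Hoxd13 window held 1 CCAAT and 2 overlapping matches to TATAAA, those of Hoxd10 and Hoxd1 held 1 CCAAT each, and the window of Hoxa10 held none of the 5. For comparison 33.8% of 32851 windows of this length in the RefSeq table held CCAAT, 12.4% TATAAA, 0.478% TTTACGA, 0.670% TGATTGAT and 15.9% TGACAG. The Hoxd13, Hoxd1 and Hoxd10 windows had 31, 24 and 20 CpG dinucleotides and the Hoxa10 window 7, against a median of 6.0 over all windows. These matches describe the letters of the windows and no measured binding.

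Hox transcripts were detected in both fractions and in every cluster. The kept probe set of each gene, the one with the highest mean normalized signal, was above background for 17, 17 and 19 of the 33 genes in the negative arrays and for 22, 16 and 7 in the positive arrays. These were 51.5%, 51.5% and 57.6% of the Hox genes in negative and 66.7%, 48.5% and 21.2% in positive arrays. Of all named probe sets, 59.3%, 51.6% and 51.7% were above background in negative and 51.3%, 44.0% and 24.6% in positive arrays. Hoxa9, Hoxa10, Hoxd10 and Hoxd13 were above background in 6 of 6 arrays, and Hoxa2, Hoxa3, Hoxa5, Hoxa11, Hoxb3, Hoxc10 and Hoxd8 in 5. By position, 6 of 14 genes of paralogue numbers 9 to 13 were above background in at least 5 arrays, as were 3 of 10 of numbers 1 to 4 and 2 of 9 of numbers 5 to 8. No share over all genes was computed for these counts by position. Hoxa7, Hoxb1, Hoxb6, Hoxb7 and Hoxc13 were above background in no array. Detection depends on each probe set as well as on its transcript, so these counts do not rank genes by abundance.

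**Figure D1:**
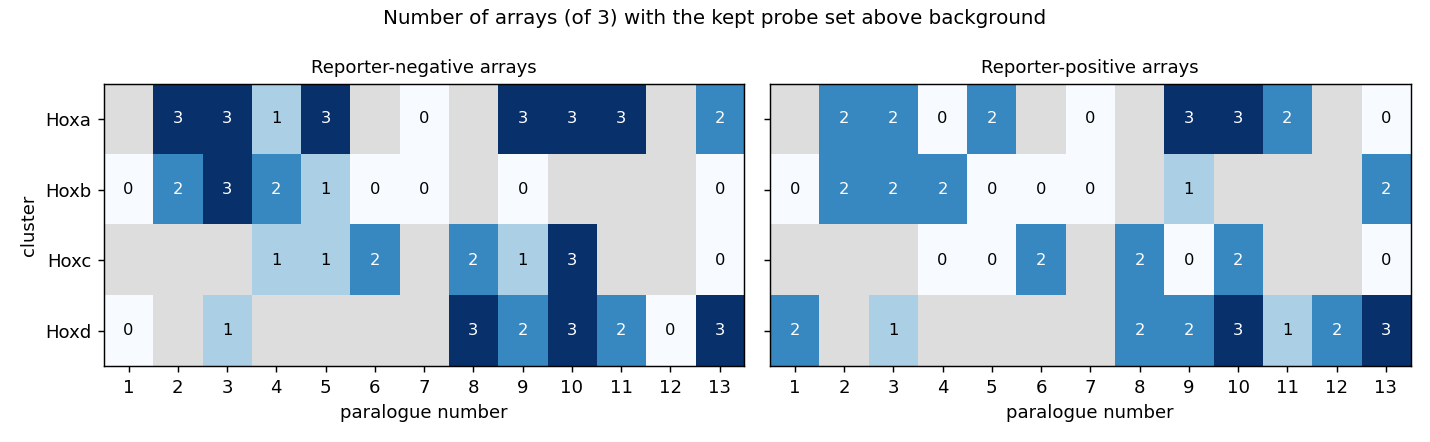
Number of arrays, of 3 in each group, in which the kept probe set of each Hox gene was above background, by cluster (rows) and paralogue number (columns). Grey cells have no gene or no probe set of its own. Hoxa9, Hoxa10, Hoxd10 and Hoxd13 reach 3 in both panels, and Hoxb13, Hoxd1 and Hoxd12 go from 0 in the negative to 2 in the positive panel.

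Over the 33 genes as a family, positive and negative differences were nearly balanced. The median difference, positive minus negative in log2(signal + 16) after quantile normalization, was -0.02 over the 33 Hox genes. It was -0.001 over all 18193 genes measured and -0.03 over the 14071 genes tested. Hox genes with a negative difference numbered 18 of 33, beside 50.2% of all genes measured. Among tested Hox genes they numbered 15 of 24, beside 52.8% of all genes tested. A filter on low values left 24 Hox genes for testing in the 6 arrays and 28 without positive replicate 3. Of the 24, none passed an adjusted p of 0.05 (limma, Benjamini-Hochberg over all genes), where 0.0142% of all genes passed, all of them higher in the positive group. The unadjusted p was under 0.05 for 1 Hox gene, Hoxb13, which was higher, and for 5.17% of all genes, 2.30% higher and 2.88% lower. Without positive replicate 3, 1 of 28 passed, Hoxb13, and was higher, against 0.611% of 13751 genes, 0.560% higher and 0.0509% lower. There 3 Hox genes had an unadjusted p under 0.05, all higher, against 9.15% of all genes, 5.39% higher and 3.76% lower. Groups did not overlap for 4 of the 24 tested genes, where 13.3% of all genes tested did not overlap. Positive arrays were all above negative ones for Hoxb13, Hoxd1 and Hoxd12, as for 6.29% of all genes, and all below for Hoxd10, as for 6.99%. Without positive replicate 3 groups did not overlap for 8 of 28 Hox genes, 6 above and 2 below, against 24.5% of all genes, 13.1% above and 11.4% below.

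**Figure D2:**
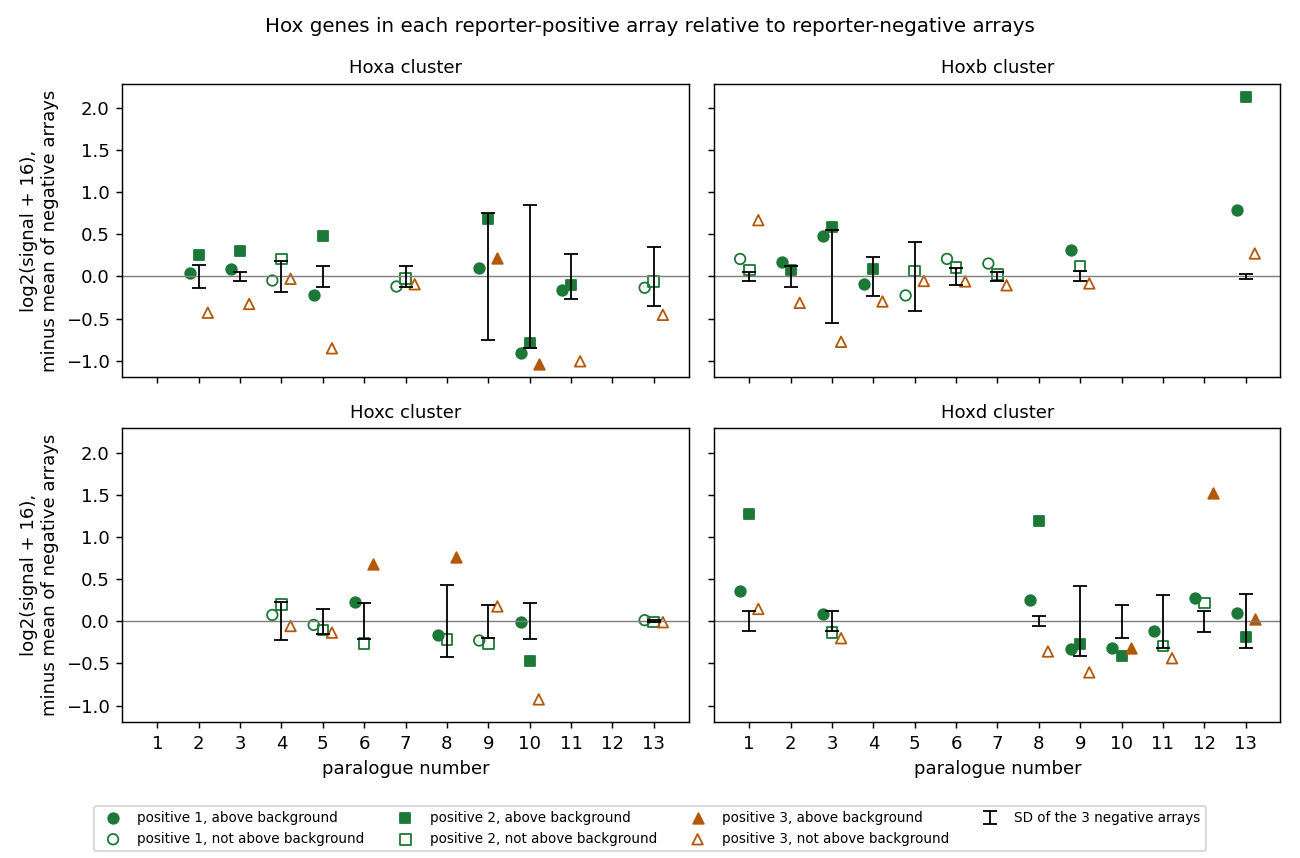
Normalized log2(signal + 16) of each Hox gene in the 3 reporter-positive arrays, minus the mean of the 3 reporter-negative arrays, by paralogue number in each cluster. Filled symbols were above the background of their array, open symbols were not, and black bars are 1 SD of the negative arrays either side of 0. Hoxb13 in positive replicate 2, at 6.17 beside a negative mean of 4.05, stands highest.

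Hoxb13, a 5′ gene at the far end of the Hoxb cluster that is known from the hindgut, the tail bud and the prostate epithelium, had the highest difference of the family. Its only probe set read 1.51, 0.49 and 0.16 in the negative arrays and 12.8, 36.5 and 0.34 in the positive arrays. Positive replicates 1 and 2 were thus above the background of 4.47 and 4.41 on their arrays, while all 3 negative arrays and positive replicate 3 lay below theirs. After normalization Hoxb13 measured 5.11 ± 0.96 (SD, n = 3) in positive and 4.05 ± 0.03 (SD, n = 3) in negative arrays, and all 3 positive arrays were above all 3 negative ones. The difference of 1.06 (SE 0.42, adjusted p = 0.725, limma) did not pass in the 6 arrays. Without positive replicate 3 Hoxb13 rose, by 1.61 (SE 0.32, adjusted p = 0.0356, limma), whereas without positive replicate 2 the difference was 0.56 (SE 0.21, adjusted p = 0.558, limma). Because no negative array measured it above background, its level there has only a bound. Taking the higher of the background level and its own value in each negative array, the group means differed 1.74-fold over 6 arrays. Without positive replicate 3 they differed 2.46-fold. The 1.74-fold value is not a lower limit, since it counts positive replicate 3 at its own value below background. Neither fold takes in the spread between arrays. The 95% interval of the log2 difference was 0.14 to 1.99 over 6 arrays and 0.92 to 2.30 without positive replicate 3. Hoxb13 also passed with median centring of all 6 arrays (difference 0.99, adjusted p = 0.00380, limma), where 0.247% of all genes passed. With array weights it passed too (1.35, adjusted p = 5.48e-05, limma), as did 3.41% of all genes. Those weights were 0.097 for positive replicate 3 and 5.17 for negative replicate 2. The adjusted p of Hoxb13 ranged from 1.37e-05 to 0.965 over 18 alternatives. Epithelial markers had array medians of 2.11, 2.99 and 2.92 and macrophage markers of 0.68, 0.57 and 0.03 in the 3 positive arrays relative to the negative mean, and their part in the value of Hoxb13 was not tested.

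Hoxd1, at the opposite end of its cluster and known for its role in pain-sensing neurons, was the other gene with signal in positive replicates 1 and 2 alone. It read 1.88, 6.20 and 0.16 in the negative arrays, below background in each, and 6.50, 17.1 and 0.22 in the positive arrays, above background in the first pair. Its normalized level was 4.72 ± 0.60 against 4.13 ± 0.12 (SD, n = 3 each), with all positive arrays above all negative ones. That separation was narrow, with positive replicate 3 at 4.277 and negative replicate 2 at 4.267, both below background. The Hoxd1 groups differed by 0.59 (SE 0.29, adjusted p = 0.725, limma), or 0.90 (SE 0.26, adjusted p = 0.211, limma) without positive replicate 3, so Hoxd1 passed in neither. Leaving out positive replicate 2 instead gave 0.26 (SE 0.18, adjusted p = 0.566, limma). With the negative arrays set as for Hoxb13, the Hoxd1 group means differed 1.33-fold over 6 arrays and 1.62-fold without positive replicate 3. The 1.33-fold value is not a lower limit, since it counts positive replicate 3 at its own value below background. The 95% interval of the log2 difference was -0.05 to 1.23 over 6 arrays and 0.35 to 1.45 without positive replicate 3. Hoxd1 passed with array weights (0.67, adjusted p = 0.0243, limma), where 3.41% of all genes passed and positive replicate 3 weighed only 0.097. Hoxd3, also from the 3′ side, was the nearest gene of the cluster analysed here, since Hoxd4 lies between them. It differed by -0.08 (SE 0.15), or -0.03 without positive replicate 3, and was above background in 1 array of each group.

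**Figure D3:**
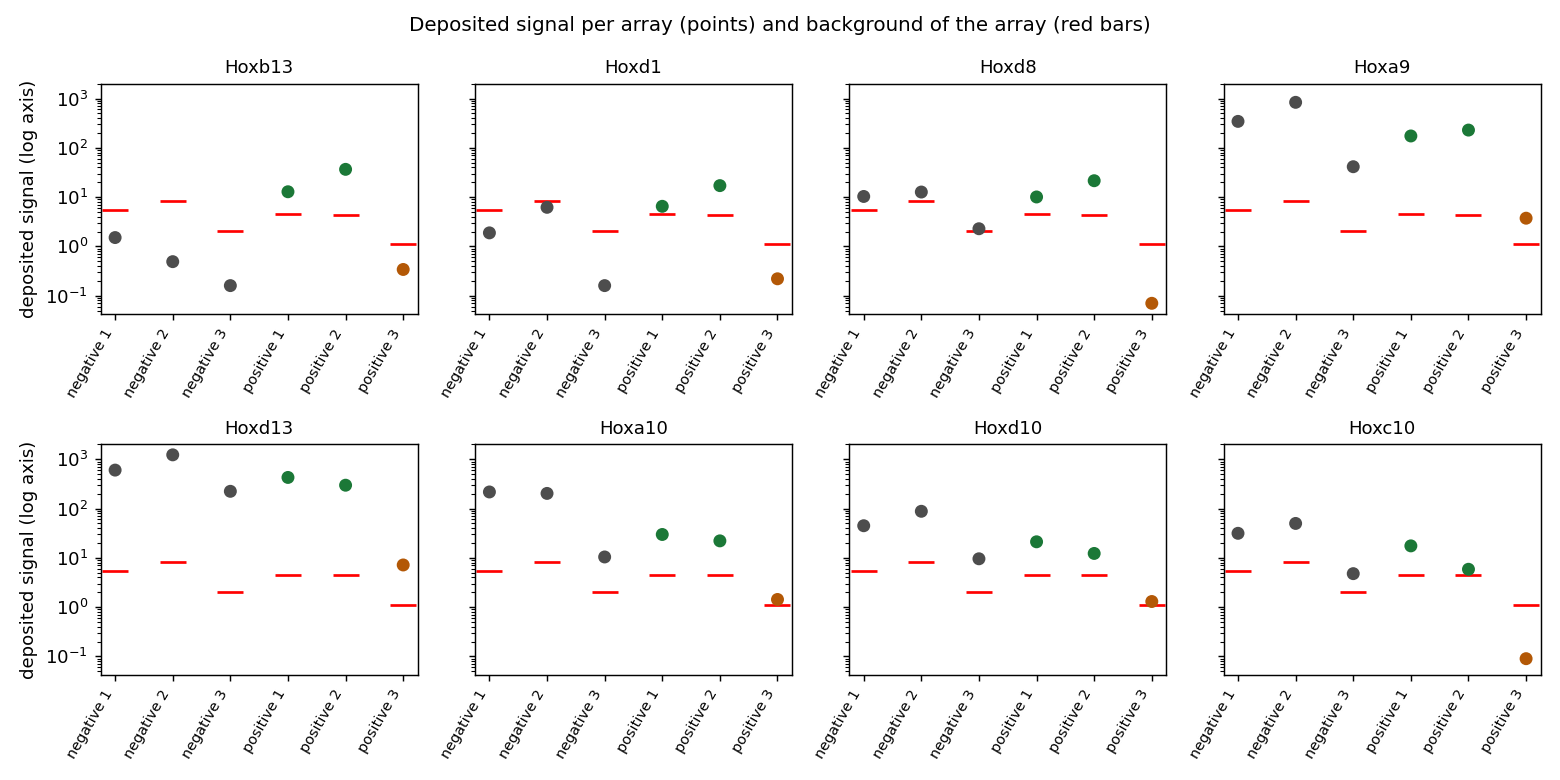
Deposited signal on a log axis for 8 Hox genes in each of the 6 arrays, with the background of each array as a red bar. Hoxb13 and Hoxd1 exceed background only in positive replicates 1 and 2, Hoxd13, Hoxa9, Hoxa10 and Hoxd10 exceed it in all 6 arrays, and positive replicate 3 (orange) has the lowest or close to the lowest signal in most panels.

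Hoxd13, required with Hoxa13 for outgrowth of the tubercle and for digits, was bright in both fractions. Its kept probe set read 603, 1229 and 224 in the negative arrays, and 428, 298 and 7.17 in the positive arrays, above background everywhere. After normalization the values were 8.56, 9.07 and 9.15 in negative and 9.02, 8.73 and 8.95 in positive arrays, so the groups overlapped. Positive minus negative was -0.02 (SE 0.27, 95% interval -0.62 to 0.57, adjusted p = 0.977, limma), and -0.05 (SE 0.30) without positive replicate 3. Other scalings moved it down, to -1.76 with median centring, where the median of all tested genes was -0.29, and to -0.50 with median centring without positive replicate 3, where that median was -0.14. Another Hoxd13 probe set read 5.48 or less on every array and differed by 0.06. The 3 genes whose values over the 6 arrays were most like those of Hoxd13 were Ackr2, Zfp651 and Mpnd, with Pearson's r of 0.98, 0.965 and 0.954, as a description over 6 arrays.

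Hoxa13, the partner of Hoxd13 in tubercle outgrowth, was near background on this array. Its single probe set read 7.30, 4.74 and 4.98 in the negative arrays, above background in replicates 1 and 3, and 4.33, 4.16 and 0.04 in the positive arrays, above background in none. Normalized levels overlapped at 4.26 ± 0.21 in positive and 4.47 ± 0.35 in negative arrays (SD, n = 3 each), and the difference was -0.21 (SE 0.22, adjusted p = 0.757, limma), or -0.11 without positive replicate 3. No fold is given over 6 arrays, since the bound on the positive level lies at or above the negative level there. Pmf1, Gstm3 and Trappc4 were the genes most like Hoxa13 over the 6 arrays, with r of 0.995, 0.995 and 0.993. They were picked as the highest r among all genes tested, and Hoxa13 was above background in only 2 of these 6 arrays. The values are a description only. Hoxc13, known from hair and nail, was above background in no array.

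Hoxd12, which lies next to Hoxd13, read 0.43, 1.33 and 1.49 in negative arrays, all below background, and 5.00, 3.25 and 1.60 in the positive arrays, above background in replicates 1 and 3. Its normalized values were 4.38, 4.33 and 5.64 in the positive arrays, all above the 3 negative arrays at 4.11 ± 0.13 (SD, n = 3). The largest of them came from positive replicate 3, and the difference fell from 0.67 (SE 0.33, adjusted p = 0.725, limma) to 0.28 (SE 0.16, adjusted p = 0.645, limma) without that array. With the negative arrays set as for Hoxb13, the Hoxd12 group means differed 1.39-fold over 6 arrays and 1.03-fold without positive replicate 3. Neither value is a lower limit, since positive replicate 2 was below background. The 95% interval of the log2 difference was -0.07 to 1.41 over 6 arrays and -0.06 to 0.62 without positive replicate 3.

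Hoxa10 and Hoxd10, paralogues that act in the hindlimb and lumbar region, with Hoxa10 also in the reproductive tract, had lower values in the positive fraction without passing the test. Hoxa10 read 217, 203 and 10.4 in the negative arrays and 29.8, 22.1 and 1.43 in positive ones. Its normalized values were 7.16, 6.67 and 5.51 in negative arrays and 5.54, 5.66 and 5.41 in positive ones, so the groups overlapped only through negative replicate 3. The difference of -0.91 (SE 0.47, adjusted p = 0.725, limma) became -0.88 (SE 0.43, adjusted p = 0.567, limma) without positive replicate 3 and -1.41 without negative replicate 3, but -0.53 without negative replicate 1. With array weights Hoxa10 passed as lower (-1.13, adjusted p = 0.0316, limma), where 3.41% of all genes passed in either direction. A dimmer Hoxa10 probe set differed by -0.20. Mesenchymal markers had medians of -0.05, -2.91 and -2.61 in the 3 positive arrays, and their part in the value of Hoxa10 was not tested.

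Hoxd10 was the only tested Hox gene with all 3 positive arrays below all 3 negative arrays, as 6.99% of all tested genes were. It read 44.8, 88.0 and 9.57 in negative and 21.2, 12.3 and 1.30 in the positive arrays, and normalized values were 5.42 to 5.76 in negative against 5.12 to 5.22 in positive arrays. Hoxd10 differed by -0.35 (SE 0.33, adjusted p = 0.740, limma) and -0.39 (SE 0.29) without positive replicate 3, so it did not pass. Hoxc10, the third paralogue and a hindlimb gene, read 31.4, 49.9 and 4.78 against 17.5, 5.86 and 0.09. Its difference was -0.47 (SE 0.33, adjusted p = 0.725, limma), with positive replicate 1 at 5.05 among the negative values of 4.83 to 5.25, and was -0.26 (SE 0.28) without positive replicate 3.

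None of the paralogues of number 9, which act in the lumbar region and the limbs, passed the test. Hoxa9 was bright in both fractions, at 344, 837 and 41.3 in the negative arrays and 174, 229 and 3.73 in the positive arrays. Its normalized levels overlapped, at 8.09 ± 0.31 in positive and 7.76 ± 0.75 in negative arrays (SD, n = 3 each), a difference of 0.33 (SE 0.42, 95% interval -0.61 to 1.28, adjusted p = 0.795, limma). That direction turned under other scalings, to -1.23 with median centring and -0.16 with median centring without positive replicate 3. Hoxd9 read 27.9, 36.4 and 1.85 against 5.92, 5.07 and 0.11, and differed by -0.40 (SE 0.28, adjusted p = 0.725, limma), or -0.34 without positive replicate 3. Only negative replicate 3, at 4.30 beside 5.03 and 5.02 in the other negative arrays, brought Hoxd9 into the range of the positive arrays, 4.18 to 4.52. Hoxb9 and Hoxc9 were above background in 1 array each, positive replicate 1 and negative replicate 2.

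Hoxa11 and Hoxd11, needed for kidney and forearm, were lower in the positive arrays on average, without passing. Hoxa11 read 17.6, 41.5 and 7.72 in the negative arrays and 13.4, 9.58 and 0.04 in the positive arrays. Its difference of -0.42 (SE 0.34, adjusted p = 0.725, limma) was -0.14 (SE 0.27) without positive replicate 3, where the gene was below background. Hoxd11 read 2.73, 19.6 and 3.95 against 4.96, 1.93 and 0.06, was above background in 3 arrays, and differed by -0.28 (SE 0.21, adjusted p = 0.725, limma), or -0.23 without positive replicate 3. In both genes the values of the groups overlapped.

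Among the genes of paralogue numbers 5 to 8, Hoxd8, a trunk gene, had the highest difference. It read 10.3, 12.7 and 2.28 in negative arrays and 10.1, 21.5 and 0.07 in the positive arrays. Positive minus negative came to 0.36 (SE 0.37, adjusted p = 0.755, limma) and 0.79 (SE 0.29, adjusted p = 0.381, limma) without positive replicate 3, and it was -0.06 without positive replicate 2, so its direction rested on positive replicate 2. Hoxa5, required in lung development, had 2 probe sets above background in 5 arrays each, and they disagreed. The kept one read 33.8, 45.4 and 5.55 against 13.9, 20.4 and 0.18 and differed by -0.20 (SE 0.39), and the other read 12.2, 22.8 and 4.12 against 16.4, 24.6 and 0.99 and differed by 0.47, while without positive replicate 3 the values were 0.14 and 0.78. Hoxc8, which patterns the thorax, and Hoxc6 differed by 0.13 (SE 0.34) and 0.21 (SE 0.26) over 6 arrays, and by -0.21 and -0.02 without positive replicate 3.

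Of the 3′ genes of numbers 2 to 4, which pattern the hindbrain and neck, Hoxa2, Hoxa3, Hoxb2, Hoxb3 and Hoxb4 were chosen because they were above background in at least 3 arrays, while Hoxa4 and Hoxc4 were above it in 1 array and Hoxd3 in 2. The kept probe set of Hoxb3 read 27.9, 75.5 and 3.07 in negative and 29.6, 21.4 and 0.22 in the positive arrays, and it differed by 0.10 (SE 0.46), or 0.58 (SE 0.34, adjusted p = 0.662, limma) without positive replicate 3. Hoxa2 read 5.94, 14.5 and 3.11 against 6.49, 6.92 and 0.04, and differed by -0.05 (SE 0.23). The kept probe set of Hoxa3 read 7.56, 11.8 and 2.54 against 6.78, 6.98 and 0.07, and differed by 0.02 (SE 0.21). The next brightest Hoxa3 probe set read 6.81, 16.4 and 3.48 against 0.58, 0.37 and 0.83, above background in the negative arrays only. It differed by -0.31, or -0.52 without positive replicate 3, and the dimmer Hoxa3 probe sets by 0.39 and -0.015. The difference of Hoxb2 was -0.02 (SE 0.20), and that of Hoxb4 -0.10 (SE 0.21). Leaving out positive replicate 3, Hoxa2, Hoxa3, Hoxb2 and Hoxb4 were at 0.16, 0.22, 0.14 and 0.00. Of these 5 genes none passed with or without positive replicate 3. The kept probe set of each was above background in positive replicates 1 and 2 and not in positive replicate 3.

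By position, the 14 genes of numbers 9 to 13 had a median difference of -0.16, with 10 negative, the 9 of numbers 5 to 8 a median of 0.02 and the 10 of numbers 1 to 4 a median of 0.03. Without positive replicate 3 these medians were -0.12, -0.02 and 0.16, and 9 of the 10 genes of numbers 1 to 4 had a positive difference, beside 50.5% of all tested genes with a negative one. Array medians of numbers 9 to 13 were -0.06, -0.14 and -0.20 in the positive arrays, and those of numbers 1 to 4 were 0.09, 0.20 and -0.25. By cluster, medians were -0.08 for Hoxa, 0.09 for Hoxb, 0.00 for Hoxc and -0.05 for Hoxd, each with array medians on both sides of 0 except Hoxc. Leaving out positive replicate 3 turned Hoxa to 0.09 and gave 0.16 for Hoxb, -0.08 for Hoxc and -0.04 for Hoxd. Mesenchymal markers had medians of -2.91 and -2.61 in positive replicates 2 and 3, and their part in these shifts was not tested.

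**Figure D4:**
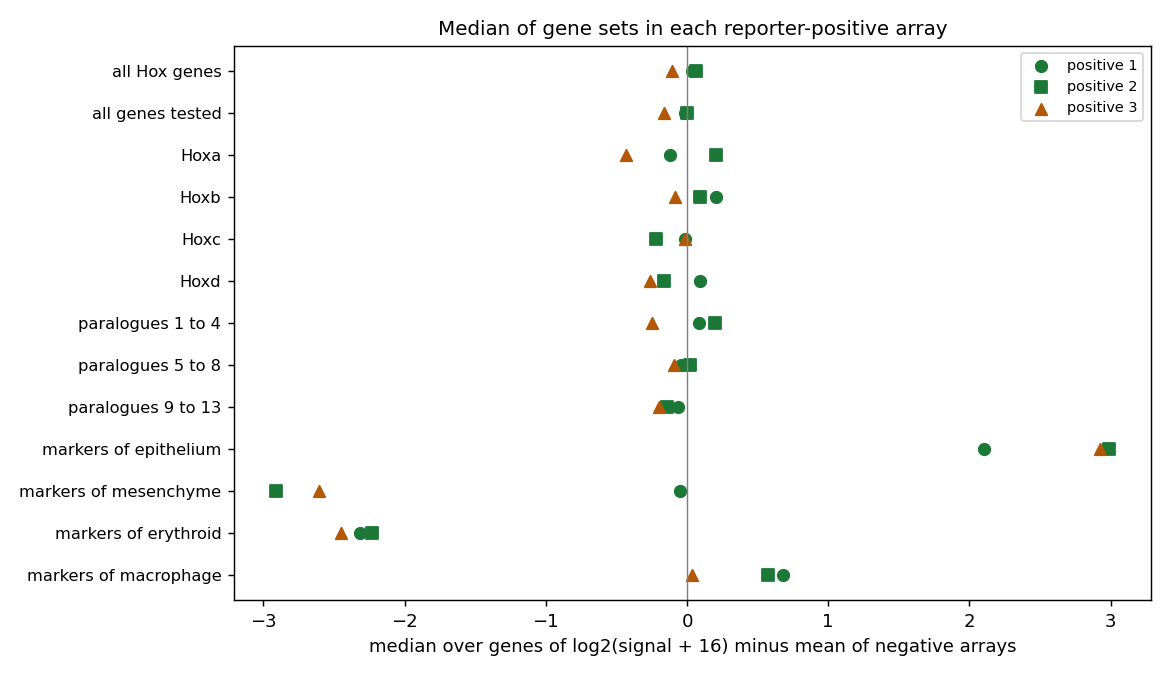
Median over genes of the normalized log2(signal + 16) in each reporter-positive array minus the mean of the reporter-negative arrays, for the Hox sets and 4 marker lists. The Hox medians lie between -0.43 and 0.21, while markers of epithelium lie at 2.11 to 2.99 and those of mesenchyme at -0.05 to -2.91.

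Probe sets of a gene did not always give the same direction. In all 11 Hox genes had several probe sets, and for 6 of them at least 1 differed in sign from the kept one, Hoxa3, Hoxa5, Hoxb3, Hoxc5, Hoxc6 and Hoxd13. The other 22 genes, among them Hoxb13, Hoxd1 and Hoxd10, rested on 1 probe set.

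In 6 lists of genes that work with, regulate, flank or lie downstream of Hox genes, Shh alone passed the threshold in the 6 arrays. TALE-class homeodomain proteins bind DNA together with Hox proteins, and 8 of 9 listed genes were measured, with a median of -0.02 and 0 of 7 tested passing in either direction. Meis2 and Meis1, the cofactors with the largest differences of that list, were at -1.44 (SE 0.84) and -1.13 (SE 0.82), but at -0.37 and -0.13 without positive replicate 3. Polycomb group genes, which keep Hox clusters silent, had 11 of 14 negative differences, beside 52.8% of all genes tested. Their median was -0.25, or -0.23 without positive replicate 3, with medians of 0.06, -0.24 and -0.625 in the 3 positive arrays. None of the 14 passed. Suz12 was at -1.25 (SE 0.63), Eed at -1.08 (SE 0.63) and Ezh1 at 1.04 (SE 0.57). These 3 genes were, without positive replicate 3, at -0.54, -0.28 and 0.32. Trithorax group genes and demethylases, which counter Polycomb, had a median of -0.24 over 9 genes, led by Wdr5 at -1.12 (SE 0.60), and none passed. Leaving out positive replicate 3, the median was 0.07 and Wdr5 was at -0.38. Of the ParaHox and upstream list, Cdx1 and Cdx4, activators of Hox clusters in the tail bud, were above background on no array, and 0 of 8 tested genes passed. The largest differences of that list were those of Aldh1a2 at -0.86 (SE 0.70), Rarg at -0.75 (SE 0.435) and Gsx2 at 0.70 (SE 0.39). Without positive replicate 3 they were -0.14, -0.455 and 0.19. Genes flanking the clusters, of which 11 were measured, had a median of 0.05, led by Skap2 at 1.13 (SE 0.47) and 0.75 without positive replicate 3, and none passed. Of 20 genes reported downstream of 5′ Hox factors, 16 had a negative difference, beside 50.2% of all genes measured. Their median was -0.35, or -0.18 without positive replicate 3. The list had medians of -0.10, -0.29 and -0.82 in the 3 positive arrays and mesenchymal markers -0.05, -2.91 and -2.61, and the part of the latter was not tested. Among these Shh, whose locus drives the sort, passed at 5.03 (SE 0.47, adjusted p = 0.0122, limma), while Tbx4 at -2.11 (SE 0.67) and Epha3 at -1.36 (SE 0.48) did not.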

How the data were processed

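Biotin-labelled RNA had been hybridized to Affymetrix mouse arrays, per the labels' protocols. The authors deposited 1 intensity per probe set and array. These values were read as linear, and GCOS is named for 1 of the 6 samples in the submitters' processing notes. How probes were summarized and scaled was not given in the sources used here. Medians ranged from 0.34 to 8.84, so the 45037 probe sets left after removing 64 controls were quantile normalized and transformed to log2(signal + 16). This understates changes of dim genes and stretches the noise of the dim positive replicate 3. Probe sets with 1 gene numbered 34945, and symbols were updated through RefSeq GRCm38.p6 gene identifiers (34741 matched). Each gene is represented by its probe set of highest mean normalized value. A gene was tested if that mean exceeded the 30th percentile of named probe sets, by limma (version 3.58.1 under R 4.3.3; lmFit, then eBayes fitting a trend on intensity), and p-values were adjusted by Benjamini-Hochberg with a threshold of 0.05. The steps were tested on simulated data. Pools of equal size were not stated to be the same litter, so no block was used. Precision is limited by the number of arrays, 3 in each group.

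Members, lists and tests were chosen with earlier results of these data known. Named genes were Hox genes past the threshold with or without positive replicate 3, genes of numbers 9 to 13 above background in at least 3 arrays, and, of numbers 1 to 8, up to 3 per cluster with the largest absolute difference among those above background in at least 3 arrays. Other genes were the most alike by Pearson's r, or had among the 3 largest absolute differences of their list. Cdx1, Cdx4 and the antisense transcripts were named outside this rule. Hoxa13, Hoxd12 and Hoxd1 were added after their values were seen.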

Additional observations from a re-analysis of the deposited data

How the results depend on the processing

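Of the 21 Hox genes followed over 17 to 19 alternatives each, Hoxb13, Hoxd1 and Hoxd12 kept a positive sign and Hoxa10, Hoxa11, Hoxc10, Hoxd9, Hoxd10 and Hoxd11 a negative sign in all of them. The other 12 changed sign in at least 1 alternative, among them Hoxd13 and Hoxa9, which were above background in 6 of 6 arrays, and the cause of each change was not tested. Median centring without positive replicate 3, and all alternatives for the lists of other genes, were chosen after seeing the data. Leaving out each array in turn gave 0 to 1 Hox genes higher and 0 to 77 genes higher and 0 to 7 lower over all genes, 0 to 2 of the genes downstream of 5′ Hox factors, and medians of -0.13 to 0.00 for Hoxc, -0.055 to 0.040 for numbers 5 to 8 and -0.230 to -0.081 for numbers 9 to 13. Over the same settings Hoxa2 ranged from -0.20 to 0.16, Hoxa3 from -0.12 to 0.22, Hoxa5 from -0.56 to 0.14, Hoxa9 from -0.042 to 0.674, Hoxb2 from -0.12 to 0.14, Hoxb3 from -0.19 to 0.58, Hoxb4 from -0.205 to 0.004, Hoxc6 from -0.022 to 0.476, Hoxc8 from -0.21 to 0.31, Hoxd13 from -0.210 to 0.088 and Hoxd8 from -0.055 to 0.790. With values as deposited the median of all tested genes moved to -0.48, no gene passed (0 higher, 0 of the downstream list), and medians were -0.21 for all Hox genes, -0.27 for Hoxc, -0.27 for Hoxd, -0.081 for numbers 5 to 8 and -0.51 for numbers 9 to 13, with Hoxa9 at -1.42, Hoxa3 at -0.18, Hoxb3 at -0.49, Hoxc6 at -0.081 and Hoxc8 at -0.58. Median centring moved the median of all tested genes to -0.29 and gave 1 Hox gene among 34 genes higher, 1 of the upstream list and 0 of the downstream list, medians of 0.11 for numbers 5 to 8 and -0.32 for numbers 9 to 13, and Hoxa9 at -1.23, Hoxb3 at -0.30 and Hoxc8 at -0.39. Without positive replicate 3 as well it gave 1 Hox gene among 65 higher and 1 lower gene, 0.084 for numbers 5 to 8, Hoxa9 at -0.16, Hoxa2 at 0.065, Hoxb2 at 0.035, Hoxc8 at -0.40 and Hoxa13 at 0.011. A pseudocount of 64 gave 0 genes higher, 0 of the downstream list and -0.049 for numbers 9 to 13, and one of 4 gave 5 higher and 1 lower, -0.40 and Hoxa3 at -0.027. A filter at the 50th percentile gave 5 higher and 1 lower, and no intensity trend 1 lower. The mean of all probe sets gave 0 higher, 0 of the downstream list, Hoxd13 at 0.02, Hoxa5 at 0.14 and Hoxc6 at -0.058. The next brightest probe set gave Hoxd13 at 0.064, Hoxa5 at 0.47, Hoxa3 at -0.31, Hoxb3 at -0.092 and Hoxc6 at -0.20. Array weights gave 2 Hox genes among 255 higher and 1, Hoxa10, among 225 lower, 3 of the downstream list, -0.13 for Hoxc, and Hoxa9 at -0.072, Hoxa5 at 0.001, Hoxa2 at 0.095, Hoxb2 at 0.038, Hoxc8 at -0.32 and Hoxa13 at 0.062. With the highest background for every array 11 and 4 Hox genes were above it in negative replicates 1 and 3 and 10, 10 and 0 in the positive arrays.

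Deviations from the group mean correlated at 0.13, 0.03 and 0.11 between arrays of equal pool size. Between arrays of unequal pool size the correlations were -0.13 to 0.06, so a shared pool was neither established nor excluded. A replicate block by pool size changed no Hox call in the 6 arrays (Hoxb13 1.06, adjusted p = 0.681, limma). With that block and without positive replicate 3, Hoxb13 (1.60, adjusted p = 1.37e-05, limma) and Hoxd1 (0.85, adjusted p = 0.0121, limma) were the 2 Hox genes among 274 higher and Hoxa10 (-1.37, adjusted p = 0.00708, limma) the 1 among 283 lower, with 3 of the downstream list, medians of 0.072 for all Hox genes, -0.18 for Hoxc and -0.017 for numbers 9 to 13, and Hoxd13 at 0.064, Hoxa5 at 0.061, Hoxa2 at 0.21, Hoxb4 at 0.051, Hoxb2 at 0.086, Hoxc8 at -0.48 and Hoxa13 at 0.12.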

Other observations

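Antisense transcripts of the Hox clusters were measured by 5 probe sets of 3 genes. Hoxa11os, transcribed opposite Hoxa11, read 49.6, 88.5 and 11.4 in the negative arrays and 14.2, 21.1 and 0.23 in the positive arrays. Its difference was -0.69 (SE 0.40, adjusted p = 0.725, limma), and -0.39 (SE 0.32) without positive replicate 3, so it did not pass. Hoxb5os was above background in 6 of 6 arrays, at 6.97, 28.8 and 3.48 against 9.38, 10.99 and 1.14, and differed by 0.28 (SE 0.28). Its neighbour in sense orientation, Hoxb5, was above background in 1 array. Hoxd3os1 read 17.1, 15.6 and 3.36 against 8.07, 2.90 and 0.32 and differed by -0.23 (SE 0.21). A further 3 probe sets were annotated to a pair of Hox genes, Hoxd3 with Hoxd4 or Hoxb7 with Hoxb8, and read at most 9.80 on any array.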
